A study of Mus musculus with 21 samples.

Results

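The genes described here are 8 Wnt ligand genes (Wnt3, Wnt3a, Wnt4, Wnt5a, Wnt7b, Wnt10a, Wnt10b and Wnt16) and the Wnt target genes Axin2 and Lef1, 10 of the 49315 gene identifiers in the deposited tables. They were chosen by name, with earlier results of these data known, and all 10 were found and passed the filter on low counts. RNA was taken from epidermal sheets of mouse skin and sequenced in 21 samples, in 7 groups of 3. Every gene was listed at 0 in 13 of the 15 files from 3-week-old mice, so the comparison rests on the 6-month-old mice. The 3 samples labelled K14CreTfap2afl/flTfap2bfl/fl (double cKO, for conditional knockout) carry floxed alleles of both Tfap2a and Tfap2b, which encode AP-2α and AP-2β, transcription factors of the skin. The K14 promoter, from a keratin gene of basal keratinocytes, drives Cre in them. The 3 strain-specific controls of the same age are labelled wild type, and whether they carry floxed alleles or Cre is not given in the labels. Libraries labelled K14CreTfap2bfl/fl from 3 weeks of age (Tfap2b cKO) held counts in 2 of 3 files, and their values are given as a description. The labels do not say whether the replicates are separate animals or pools, so the p-values measure the spread between these samples.

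Wnt proteins are secreted, lipid-modified ligands that bind Frizzled receptors. With the co-receptors Lrp5 and Lrp6, the canonical branch stabilises β-catenin, which acts on target genes in the nucleus with factors of the TCF/LEF family. In skin, Wnt ligands are made by keratinocytes, and the pathway is known for its part in forming hair follicles and in starting their growth phase.

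Wnt4 and Wnt10a rose in the double cKO libraries, by 2.62 and 2.02 times in mean CPM (counts per 1000000 counts of a library), and Lef1 fell to a level 6.14 times lower. The 2 rises were called in all 16 alternative analyses, whereas the fall of Lef1, which passed the filter on low counts through the controls, was lost in 10 of 15. The other 7 genes did not pass the test. Wnt3a, Wnt5a and Axin2 had every double cKO library above every control library without passing it, while the 2 most abundant ligands, Wnt3 and Wnt7b, had overlapping groups. The test was edgeR's quasi-likelihood test on counts, with Benjamini-Hochberg adjustment over 17755 genes and a threshold of 0.05. Of the 10 genes, 2 were called higher and 1 lower (30%), where 14.9% of all genes tested were called, 6.26% higher and 8.59% lower. The groups did not overlap for 6 of the 10, against 38.7% of all genes tested. The median log2 fold change was 0.28 over the 10 genes and -0.035 over all genes tested.

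**Figure D1:**
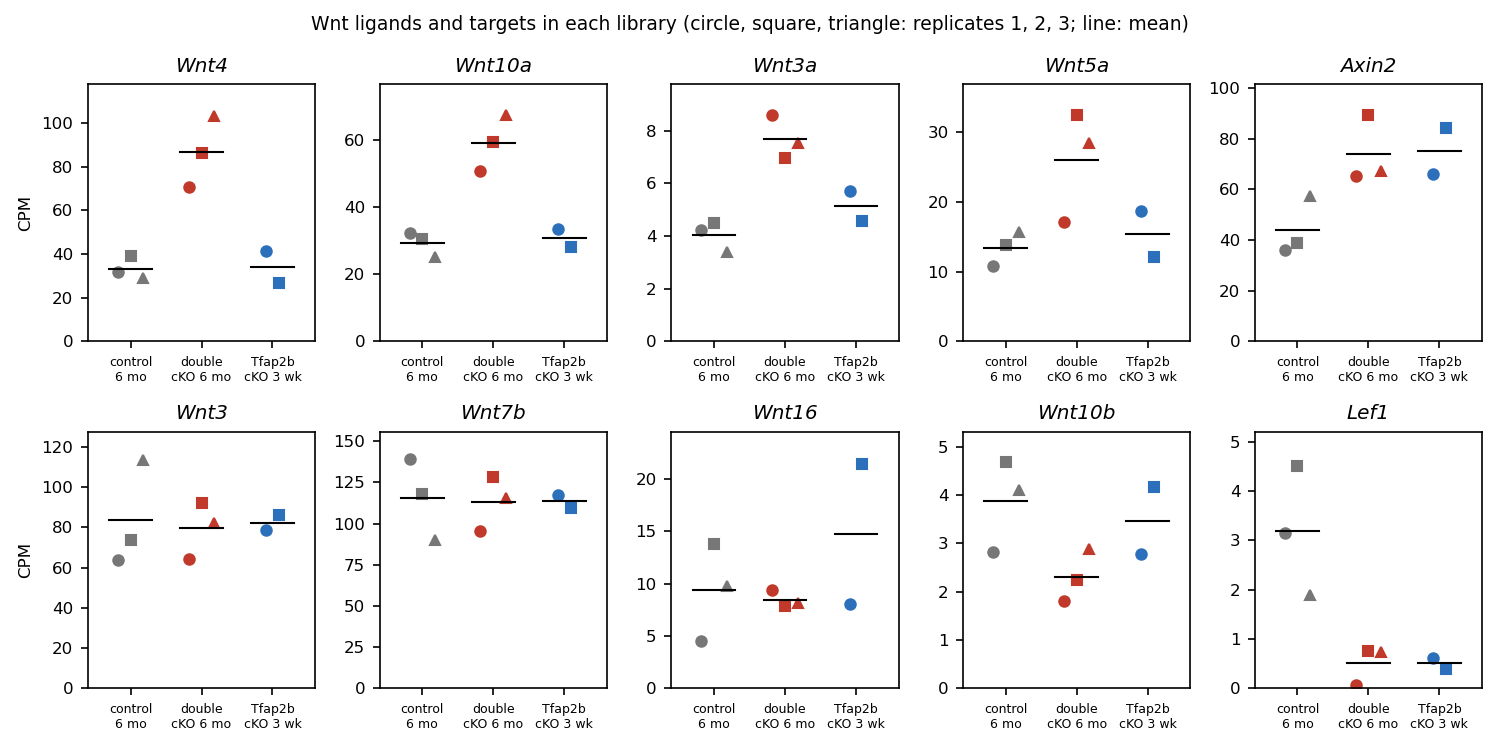
CPM of the 10 genes in each library, by group, with replicates 1, 2 and 3 as circle, square and triangle and the group mean as a line. Wnt4 in the double cKO libraries lies between 70.5 and 103 CPM, above all 3 controls, and Lef1 lies under 1 CPM in all 3 against 1.89 to 4.51 in the controls.

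The libraries held 11318181 to 17746284 counts. Control replicates 1 and 2 and Tfap2b cKO replicate 1 stood apart from the rest. The 2 controls held 1.61 and 3.19 counts per exonic kilobase in 1420 autosomal odorant and vomeronasal receptor genes, whose known site is the nose, against 0.0969 to 0.195 in the other 6 libraries. Control replicate 3 had rank correlations across genes of 0.942 and 0.947 with the other controls and of 0.944 to 0.951 with the double cKO libraries. Tfap2b cKO replicate 1 had the lowest rank correlations with other libraries (0.895 to 0.923) and held 2903 CPM of dermal fibroblast and 398 CPM of endothelial markers, against 28.1 and 0.320 in replicate 2. The targeted genes, summed over their exons, were not called lower. Tfap2a was at 165, 140 and 210 CPM in the controls and 229, 213 and 309 in the double cKO libraries (log2 fold change 0.47, edgeR adjusted p 0.118). Tfap2b was at 57.3, 86.6 and 71.0 against 53.8, 57.2 and 56.9, with every double cKO library below every control (log2 fold change -0.43, edgeR adjusted p 0.111). Tfap2c, an AP-2 gene not named in the labels, was called higher (log2 fold change 0.50, edgeR adjusted p 0.0384). It was at 107, 90.0 and 86.8 CPM in the controls and 142, 135 and 148 in the double cKO libraries. Its call was not followed through the alternative analyses. Which exons are floxed is not given in the labels, so a gene-level count need not show the deletion, and directions are given by label. Epidermal markers were abundant in all of them, with 12438 to 16931 CPM summed over 7 suprabasal keratinocyte genes at 6 months.

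Promoter sequence from RefSeq (GRCm38.p6), 250 bases before to 50 after a transcription start, was at hand for 7 of the 10 genes: Wnt3, Wnt3a, Wnt4, Wnt10b, Wnt16, Axin2 and Lef1. It was searched on both strands for the AP-2 motif GCCNNNGGC, because the floxed genes encode AP-2 factors, and for the TCF/LEF motifs CTTTGAT and CTTTGTT, because Axin2 and Lef1 are Wnt targets. The 4 stretches below show a gene that rose, a ligand whose double cKO libraries all lay above the controls, and the 2 target genes. Each is the part of the window upstream of the RefSeq start and of the first exonic base in the deposited files, written 5′ to 3′ on the gene's strand, with AP-2 matches in capitals.
Wnt4 (chr4:137277385-137277488, + strand, 104 bases): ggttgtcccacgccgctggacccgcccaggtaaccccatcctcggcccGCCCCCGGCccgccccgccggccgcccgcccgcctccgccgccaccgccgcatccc
Wnt3a (chr11:59290753-59291001, - strand, 249 bases): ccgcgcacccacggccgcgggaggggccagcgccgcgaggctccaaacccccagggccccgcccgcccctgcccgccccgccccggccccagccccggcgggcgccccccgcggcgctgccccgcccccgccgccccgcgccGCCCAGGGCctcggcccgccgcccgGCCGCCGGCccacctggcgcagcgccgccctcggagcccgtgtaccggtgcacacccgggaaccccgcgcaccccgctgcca
Axin2 (chr11:108920099-108920348, + strand, 250 bases): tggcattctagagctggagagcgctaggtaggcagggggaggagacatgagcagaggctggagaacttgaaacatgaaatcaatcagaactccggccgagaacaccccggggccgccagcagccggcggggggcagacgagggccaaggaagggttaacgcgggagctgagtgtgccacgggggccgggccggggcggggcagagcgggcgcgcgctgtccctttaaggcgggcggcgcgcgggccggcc
Lef1 (chr3:131110047-131110296, + strand, 250 bases): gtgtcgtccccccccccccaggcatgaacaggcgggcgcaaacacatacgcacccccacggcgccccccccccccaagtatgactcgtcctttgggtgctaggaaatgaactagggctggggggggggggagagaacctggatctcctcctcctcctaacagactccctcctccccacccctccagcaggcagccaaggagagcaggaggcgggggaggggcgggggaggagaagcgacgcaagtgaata

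The upstream stretch of Wnt4 holds 1 AP-2 match, and the full window holds another at position 20 after the start. Wnt3a holds 2, and Axin2 and Lef1 hold none. Over full windows, 5 of the 7 genes had an AP-2 match (Wnt3, Wnt3a, Wnt4, Wnt10b and Wnt16), each in its only window. The 7 genes have 10 windows, as Lef1 has 4, and 16.6% of all 32851 windows had a match. The window of Wnt4 has 84.3% GC and that of Wnt3a 86.3%, and in all windows of at least 60% GC the AP-2 share was 34.9%. A TCF/LEF match was found in 1 of the 10 windows, that of Wnt3, and in 9.33% of all windows. Genes with an AP-2 match include Wnt4, which rose, and Wnt3, Wnt10b and Wnt16, whose groups overlapped. These letters are a description of the sequence, not of binding.

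Wnt4, a ligand best known from kidney and gonad development, rose. Its gene lies at chr4:137277489-137299726 on the + strand (ENSMUSG00000036856, coordinates of the files, read as GRCm38). The controls held 31.7, 38.9 and 28.8 CPM and the double cKO libraries 70.5, 86.2 and 103. All 3 double cKO libraries lay above all 3 controls, and the mean went from 33.1 ± 5.17 to 86.7 ± 16.4 (SD, n = 3 each). The log2 fold change was 1.31 with an SE of 0.19 (edgeR adjusted p 0.00333). Across 16 alternative analyses it stayed between 1.20 and 1.53 and past the threshold in all 16.

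Wnt10a is a ligand whose loss in people affects teeth, hair and sweat glands. It lies at chr1:74791516-74804179 on the + strand (ENSMUSG00000026167) and rose as well. Its levels were 32.3, 30.5 and 25.1 CPM in the controls and 50.6, 59.4 and 67.4 in the double cKO libraries, with no overlap. The mean went from 29.3 ± 3.76 to 59.1 ± 8.39 (SD over 3 libraries each). Its log2 fold change was 0.94 with an SE of 0.18 (edgeR adjusted p 0.0106). The call held in all 16 alternatives. Wnt6, its neighbour on chromosome 1 at chr1:74771892-74785322, had overlapping groups, with 2.16, 1.86 and 3.13 CPM in the controls and 0.797, 2.52 and 1.52 in the double cKO libraries (edgeR adjusted p 0.450).

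Wnt3a, a canonical ligand at chr11:59248033-59290752 on the - strand (ENSMUSG00000009900), was low but separated the groups. It was counted 51, 51 and 52 times in control and 119, 102 and 134 times in double cKO libraries, or 4.24, 4.51 and 3.39 against 8.62, 6.95 and 7.55 CPM. Its log2 fold change of 0.83 (SE 0.29) did not pass the threshold (edgeR adjusted p 0.0722), nor did it in any of the 16 alternatives. Wnt9a, which lies beside it, had 1.74, 2.12 and 0.977 CPM in the controls and 1.09, 0.545 and 0.902 in the double cKO libraries (edgeR adjusted p 0.276).

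Wnt5a is the standard ligand of the branch that does not use β-catenin, and lies at chr14:28504750-28527447 on the + strand (ENSMUSG00000021994). It was at 10.8, 13.8 and 15.7 CPM in the controls and 17.2, 32.5 and 28.5 in the double cKO libraries. The groups did not overlap, but double cKO replicate 1 lay close to the highest control. At a log2 fold change of 0.88 (SE 0.26) it just missed the threshold (edgeR adjusted p 0.0501), and 9 of 16 alternatives put it past it. Its exons share 358 bases with the antisense gene Gm2670, which was not called (edgeR adjusted p 0.334). Use of strand in counting is not given in the sources used here, so reads of the 2 genes cannot be told apart over those bases.

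Wnt3 and Wnt7b, canonical ligands of the epidermis, had overlapping groups. Wnt3 (chr11:103774150-103817957, + strand, ENSMUSG00000000125) was at 63.8, 73.8 and 113 CPM in the controls and 64.0, 92.1 and 82.2 in the double cKO libraries. Control replicate 3 was the highest of these 6. The log2 fold change was -0.15 with an SE of 0.22 (edgeR adjusted p 0.685) and was 0.22 without that library. Wnt7b (chr15:85535439-85581821, - strand, ENSMUSG00000022382) was at 139, 118 and 89.8 CPM against 95.4, 128 and 116. It shares 38 exonic bases with the antisense gene AU022754. Here control replicate 3 was the lowest of the 6, and the log2 fold change was -0.11 with an SE of 0.19 (edgeR adjusted p 0.731).

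Wnt10b and Wnt16 were low, and neither passed the test. Wnt10b (chr15:98771753-98778150, - strand, ENSMUSG00000022996), a ligand tied to hair follicle growth, had control counts of 34, 53 and 63 and double cKO counts of 25, 33 and 51. In CPM these were 2.82, 4.68 and 4.10 against 1.81, 2.25 and 2.87, with double cKO replicate 3 just above the lowest control. It had a log2 fold change of -0.77 with an SE of 0.40 (edgeR adjusted p 0.194). Wnt16 (chr6:22288227-22298522, + strand, ENSMUSG00000029671) was at 4.48, 13.8 and 9.77 CPM in the controls, a wide spread that enclosed the 9.41, 7.84 and 8.17 of the double cKO libraries (log2 fold change -0.21, SE 0.36, edgeR adjusted p 0.716).

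Axin2 encodes a scaffold of the β-catenin destruction complex and is the usual readout of canonical signalling, since the pathway induces its own inhibitor. It lies at chr11:108920349-108950783 on the + strand (ENSMUSG00000000142). Its levels were 35.9, 38.8 and 57.2 CPM in the controls and 65.2, 89.6 and 67.2 in the double cKO libraries. No double cKO library fell below a control, though control replicate 3 came near to 2 of them. The log2 fold change of 0.68 (SE 0.21) missed the threshold (edgeR adjusted p 0.0529). It was past it in 5 of 16 alternatives, among them the fit without control replicate 3, where it was 0.99. The antisense gene Gm11670 covers 209 of its 5506 exonic bases and was not called (edgeR adjusted p 0.254).

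Lef1, the factor through which β-catenin acts in hair germ and matrix cells and itself a Wnt target, went the other way. It lies at chr3:131110471-131224356 on the + strand (ENSMUSG00000027985). Lef1 had 38, 51 and 29 counts across the controls but 1, 11 and 13 across the double cKO libraries, that is 3.16, 4.51 and 1.89 against 0.0724, 0.750 and 0.733 CPM. All 3 controls lay above all 3 double cKO libraries, and Lef1 passed the filter on low counts through the controls. The log2 fold change was -2.38 with an SE of 0.73 (edgeR adjusted p 0.0393).

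The call on Lef1 was weaker than those on Wnt4 and Wnt10a, as it was lost in 10 of 15 alternatives while the direction held in all 15. Part of its counts in control replicates 1 and 2 matches what the receptor-gene density would give over its 8788 exonic bases, namely 14.1 of 38 and 28.0 of 51 counts, against 1.30 of 29 in control replicate 3. With that density subtracted, the controls stood at 1.98, 2.03 and 1.80 CPM and the double cKO libraries at 0, 0.686 and 0.667, so the groups still did not overlap (log2 fold change -1.93, edgeR adjusted p 0.120). Without both of those control libraries the log2 fold change was -1.67 (edgeR adjusted p 0.349). The share of counts matched by that density was at most 17.3% for the other 9 genes, in Wnt3a of control replicate 2. The antisense gene Gm43352 shares 1208 bases with Lef1, with control counts of 6, 1 and 0 and none in any double cKO library.

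**Figure D2:**
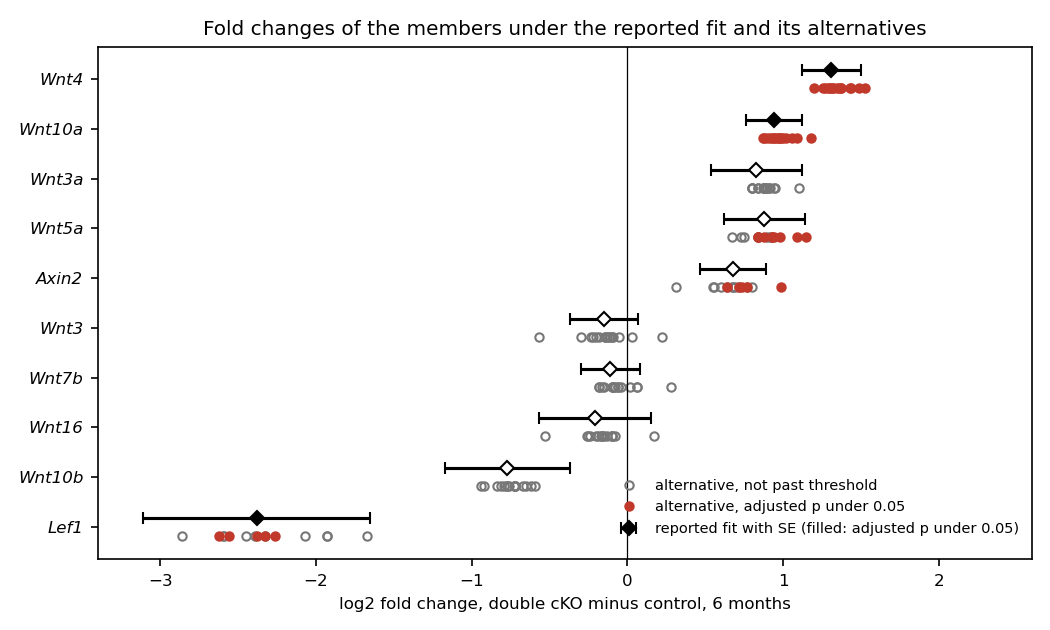
Log2 fold change of each gene, double cKO minus control at 6 months, in the reported fit (diamond with SE) and in each alternative (circles, filled where the adjusted p was under 0.05). The circles of Wnt4 lie between 1.20 and 1.53 and are all filled, while those of Lef1 run from -2.86 to -1.67 and only some are filled.

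Levels can be compared between genes only per length, so TPM (counts per exonic length, scaled to 1000000 per library) was used. In the controls the order was Wnt3 (73.1 ± 36.3 TPM), Wnt7b (66.9 ± 11.1), Wnt10a (30.5 ± 3.26), Axin2 (21.4 ± 9.58), Wnt4 (20.2 ± 1.20), Wnt16 (5.48 ± 2.5), Wnt5a (4.52 ± 1.52), Wnt10b (4.29 ± 1.22), Wnt3a (3.74 ± 0.176) and Lef1 (0.895 ± 0.221; SD, n = 3). Neighbours in that order had overlapping ranges except Wnt7b and Wnt10a, Wnt4 and Wnt16, and Wnt3a and Lef1. In the double cKO libraries Wnt3 (74.2 ± 14.9 TPM), Wnt7b (73.7 ± 12.5), Wnt10a (68.7 ± 9.29), Wnt4 (59.2 ± 10.6) and Axin2 (38.7 ± 8.39) formed a run in which neighbours overlapped, and Axin2 did not overlap with Wnt5a after it. Wnt10a and Wnt4 thus stood near the levels of Wnt3 and Wnt7b there, while in the controls every Wnt4 and Wnt10a value lay below every Wnt3 and Wnt7b value. Below them came Wnt5a (9.58 ± 3.09), Wnt3a (8.0 ± 0.760), Wnt16 (5.57 ± 0.494), Wnt10b (2.84 ± 0.616) and Lef1 (0.170 ± 0.127 TPM).

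**Figure D3:**
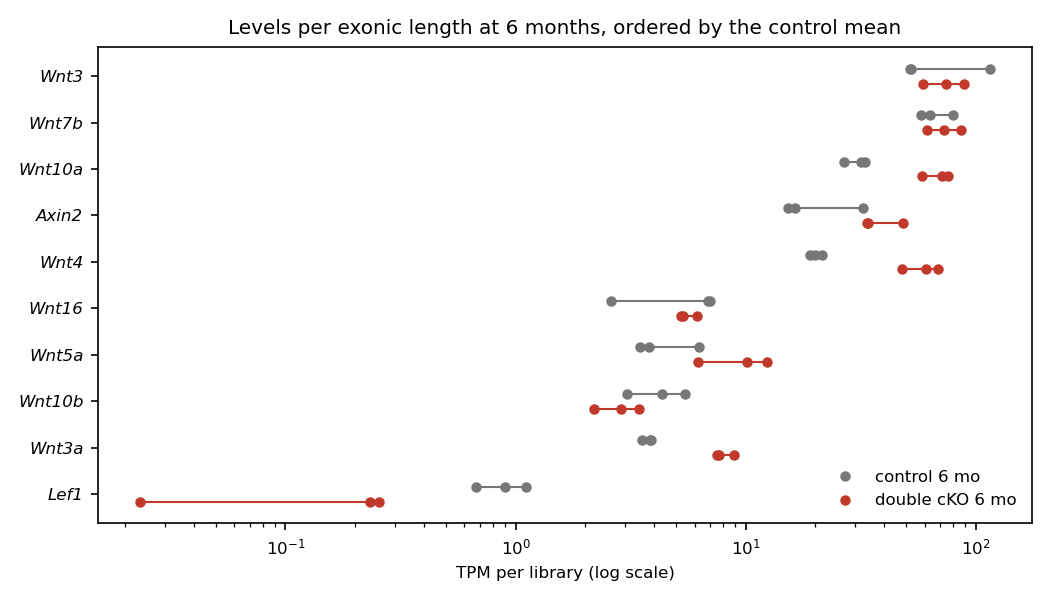
TPM of the 10 genes in each 6-month library on a log axis, ordered by the control mean, with a line from the lowest to the highest library of a group. Wnt10a and Wnt4 move from 30.5 and 20.2 TPM in the controls towards Wnt3 and Wnt7b in the double cKO libraries.

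The 8 ligands made up nearly all Wnt ligand RNA. Of the summed TPM of 19 Wnt ligand genes, they held 91.6, 92.6 and 94.9% in the controls and 96.7, 96.1 and 97.5% in the double cKO libraries. The share of Wnt4 was 8.88, 10.6 and 8.01% in the controls and 18.5, 17.5 and 21.0% in the double cKO libraries. Wnt10a held 15.4, 14.1 and 11.8% against 22.5, 20.4 and 23.3%. The shares of both were higher in all 3 double cKO libraries. Those of Wnt7b (37.0, 30.6 and 23.7% against 23.8, 24.7 and 22.4%) and Wnt3 (24.3, 27.5 and 42.9% against 22.9, 25.4 and 22.8%) overlapped between the groups.

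In the 2 libraries labelled Tfap2b cKO, from younger mice and without a control of their age here, Wnt4 was at 41.4 and 26.5 CPM and Wnt10a at 33.3 and 27.9. These values lie near those of the 6-month controls and below every 6-month double cKO library. Axin2 was at 66.1 and 84.2 CPM and Lef1 at 0.617 and 0.400, from 8 and 5 counts, which is the range of the double cKO libraries and not that of the controls. Wnt16 was at 8.02 and 21.4 CPM, Wnt3a at 5.70 and 4.56, Wnt5a at 18.7 and 12.1, and Wnt10b at 2.78 and 4.16. The order by mean TPM began as at 6 months with Wnt3 (75.7 and 94.0) and Wnt7b (78.8 and 83.5). The first value of each pair is from replicate 1, the library with the dermal and endothelial markers, whose part in these values was not tested. Age, genotype and library differ at once between these and the other groups and cannot be told apart.

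Markers of basal keratinocytes, the cells in which the K14 promoter is active, moved with the comparison. Of 8 basal genes, 5 were called higher and none lower, where 6.26% of all genes tested were called higher and 8.59% lower. The median log2 fold change of the 8 was 0.89 (-0.035 over all genes tested). The summed level of the 8 was 7352 to 9675 CPM in the controls and 15976 to 18961 in the double cKO libraries. Abundant genes weigh most in that sum, and Krt14, 1 of the 8, went from a mean of 1230 to 4236 CPM. In bulk RNA, more cells of a type and more RNA per cell cannot be told apart, nor can fewer cells and less RNA per cell. Per 10000 CPM of these markers, Wnt4 was at 40.5, 52.9 and 29.8 in the controls and 44.2, 52.0 and 54.5 in the double cKO libraries, and Wnt10a at 41.2, 41.5 and 25.9 against 31.7, 35.8 and 35.5. Both overlapped on that scale, with ratios of the means of 1.22 and 0.949. Wnt3a, Wnt5a, Axin2 and Wnt16 overlapped too, at ratios of 0.903, 0.931, 0.826 and 0.432. Wnt3 and Wnt7b, whose CPM overlapped, were lower per basal marker in all 3 double cKO libraries, at ratios of 0.465 and 0.461, as were Wnt10b (0.282) and Lef1 (0.0730). The part of the basal marker level in these results was not tested, and a scale that weighs the 8 genes alike was not tried.

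For Lef1, markers of other cell types that an epidermal sheet can hold are given beside it. Of all genes tested, 6.26% were called higher and 8.59% lower, and 38.7% had groups that did not overlap. Of 10 hair follicle stem cell genes, 1 was called higher and 3 lower, with a median log2 fold change of -1.32. Without overlap, 1 of the 10 lay higher and 6 lower, while their sum overlapped (1050 to 1721 CPM in the controls, 832 to 1535 in the double cKO libraries). None of the 10 was at 0 in any of these libraries. Of 7 tested genes of hair germ, matrix and shaft, 1 was called higher and 1 lower, with a median of -0.37. Without overlap, 1 of these lay higher and 2 lower. The sum over all 11 was 501 to 858 CPM in the controls and 613 to 794 in the double cKO libraries. Krt31 and Msx1 were at 0 in at least 1 of the latter. Of 8 tested dermal papilla genes, 1 was called lower, with a median of -1.40, and 3 lay lower and none higher without overlap. The sum over all 10 was 78.3 to 137 CPM against 24.0 to 63.8. Fgf7 and Sox2 were at 0 in at least 1 control and Fgf10 in at least 1 double cKO library. Of 9 T cell genes, 1 was called higher and none lower, with a median of -0.37 and sums of 122 to 245 and 134 to 302 CPM. Without overlap, 1 T cell gene lay higher and none lower, and no gene was at 0. None of 5 tested melanocyte or 4 tested endothelial genes was called, and all overlapped, with medians of 0.17 and -0.70. All 7 melanocyte genes summed to 40.0 to 82.3 CPM in the controls and 29.5 to 57.5 in the double cKO libraries, with Tyr at 0 in at least 1 of the latter. The 5 endothelial genes summed to 4.82 to 21.5 and 6.27 to 8.26 CPM. Dermal fibroblast genes summed to 63.6, 175 and 68.9 CPM in control replicates 1, 2 and 3 and to 42.2 to 51.5 in the double cKO libraries. Of the 8, 1 was called higher and 3 lower, with a median of -2.07. Without overlap, 1 lay higher and 6 lower, and Lum was at 0 in at least 1 double cKO library. Control replicate 2 also had the highest receptor-gene density, and the part of that density in these marker levels was not tested. Lgr5 and Tcf7l1 of the stem cell list and Msx2 of the hair germ list, each called lower, are also counted among the Wnt pathway genes below. Sox9 of the stem cell list and Rspo3 of the dermal papilla list, not called, are in both as well. The marker lists are thus not independent of the Wnt pathway lists. The part of these cell types in the Lef1 result was not tested.

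The other Wnt pathway genes were taken from 8 lists with 97 genes, of which 78 could be tested. Among these, 6 were called higher and 10 lower (20.5% of those tested, against 14.9% of all genes), with a median log2 fold change of -0.10. None of the 6 tested among the 11 other Wnt ligands was called. Wnt11 had the largest change of these, at a log2 fold change of -1.39 (edgeR adjusted p 0.0582).

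In ligand secretion, Porcn was the only one of 3 tested genes called. It encodes the acyltransferase that puts the lipid on every Wnt ligand. Its levels were 3.07, 6.10 and 5.60 CPM in the controls and 23.0, 22.6 and 40.1 in the double cKO libraries, with no overlap between the groups (log2 fold change 2.43, SE 0.33, edgeR adjusted p 0.00233). Wls, which carries Wnt ligands to the cell surface, was not called (log2 fold change -0.34, edgeR adjusted p 0.171).

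Among receptors and co-receptors, 3 of 17 tested genes rose and 3 fell. The Frizzled receptor Fzd6, known for its part in hair orientation, went from a mean of 72.2 to 180 CPM (log2 fold change 1.25, edgeR adjusted p 0.000631). The co-receptor Lrp5 went from 120 to 192 CPM (0.60, edgeR adjusted p 0.0266), and the planar polarity gene Vangl1 from 28.5 to 51.1 (0.77, edgeR adjusted p 0.0369). Ror1, a receptor tyrosine kinase that binds Wnt5a, fell from 15.6 to 3.68 CPM (-2.12, edgeR adjusted p 0.00297). The Frizzled genes Fzd5 and Fzd3 fell from 46.4 to 19.2 and from 17.0 to 6.98 CPM (-1.34 and -1.33, edgeR adjusted p 0.0102 and 0.0190). Lrp6 was not called, at a log2 fold change of 0.01 (edgeR adjusted p 0.959). Of 16 alternatives, the call held in 16 for Fzd6, 15 for Ror1, 14 for Fzd5, 12 for Fzd3, 10 for Lrp5 and 9 for Vangl1. Without both control replicates 1 and 2, the log2 fold change of Fzd5 was -0.67.

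Lgr5, an R-spondin receptor, hair follicle stem cell marker and Wnt target, was the only one of 6 tested genes of the R-spondin arm to be called. It was at 18.1, 39.4 and 19.1 CPM in the controls and 0.941, 1.02 and 4.0 in the double cKO libraries (log2 fold change -3.63, edgeR adjusted p 0.00785). Without double cKO replicate 3, its highest library in that group, the log2 fold change was -4.54. Of 10 tested genes in the list of secreted and membrane inhibitors, Dkkl1 alone was called, from 71.2 to 40.6 CPM (-0.89, edgeR adjusted p 0.0294, held in 10 of 16 alternatives). Whether Dkkl1 acts as a Wnt inhibitor was not tested. In the cytoplasm, Apc2 fell from 9.28 to 2.32 CPM and was the only one of 16 called (-2.02, edgeR adjusted p 0.0323). That call held in 7 of 16 alternatives, and control replicate 1, at 16.9 CPM against 7.60 and 3.39 in the other controls, carried much of the mean. Without it the log2 fold change was -1.26, and -0.58 without control replicate 2 as well. For Apc2 the receptor-gene density would give 18.2 of 203, 36.0 of 86 and 1.66 of 52 counts in control replicates 1, 2 and 3. With that density subtracted its log2 fold change was -1.88 and its call was lost (edgeR adjusted p 0.0556). The other named pathway genes, Bambi below among them, kept their calls in that fit. Ctnnb1, which encodes β-catenin, had a log2 fold change of 0.08 (edgeR adjusted p 0.695). Of 12 nuclear factors, only Tcf7l1 was called, from 6.11 to 1.70 CPM (-1.83, edgeR adjusted p 0.0317, held in 9 of 16 alternatives). The factors Tcf7 and Tcf7l2, of the same family as Lef1, had log2 fold changes of 0.01 and 0.27 (edgeR adjusted p 0.987 and 0.288).

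Of the 17 other target genes 13 were tested, and 2 rose and 4, Lgr5 included, fell. Cd44, a hyaluronan receptor, and Ccnd1, cyclin D1, rose from 786 to 1555 and from 60.9 to 112 CPM (log2 fold changes 0.91 and 0.80, edgeR adjusted p 0.0239 and 0.0135). These calls held in 11 and 13 of 16 alternatives. Nkd2, an inhibitor of Dishevelled, fell from 14.4 to 1.57 CPM (-3.16, edgeR adjusted p 0.000527), and held in all 16 alternatives, as did Fzd6. Bambi, a decoy receptor of the TGF-β family, fell from 5.07 to 0.620 CPM (-2.81, edgeR adjusted p 0.0160). With 4, 4 and 23 counts in the double cKO libraries it passed the filter through the controls. Its log2 fold change was -3.63 without double cKO replicate 3, and its call was lost without control replicate 2, double cKO replicate 1 or double cKO replicate 2. Msx2, a homeobox gene of the hair matrix, fell from 7.96 to 3.53 (-1.22, edgeR adjusted p 0.0226, held in 10 of 16 alternatives). Nkd1, also an inhibitor of Dishevelled, missed the threshold at a log2 fold change of -1.91 (edgeR adjusted p 0.0539). The remaining 6 tested targets were not called either.

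**Figure D4:**
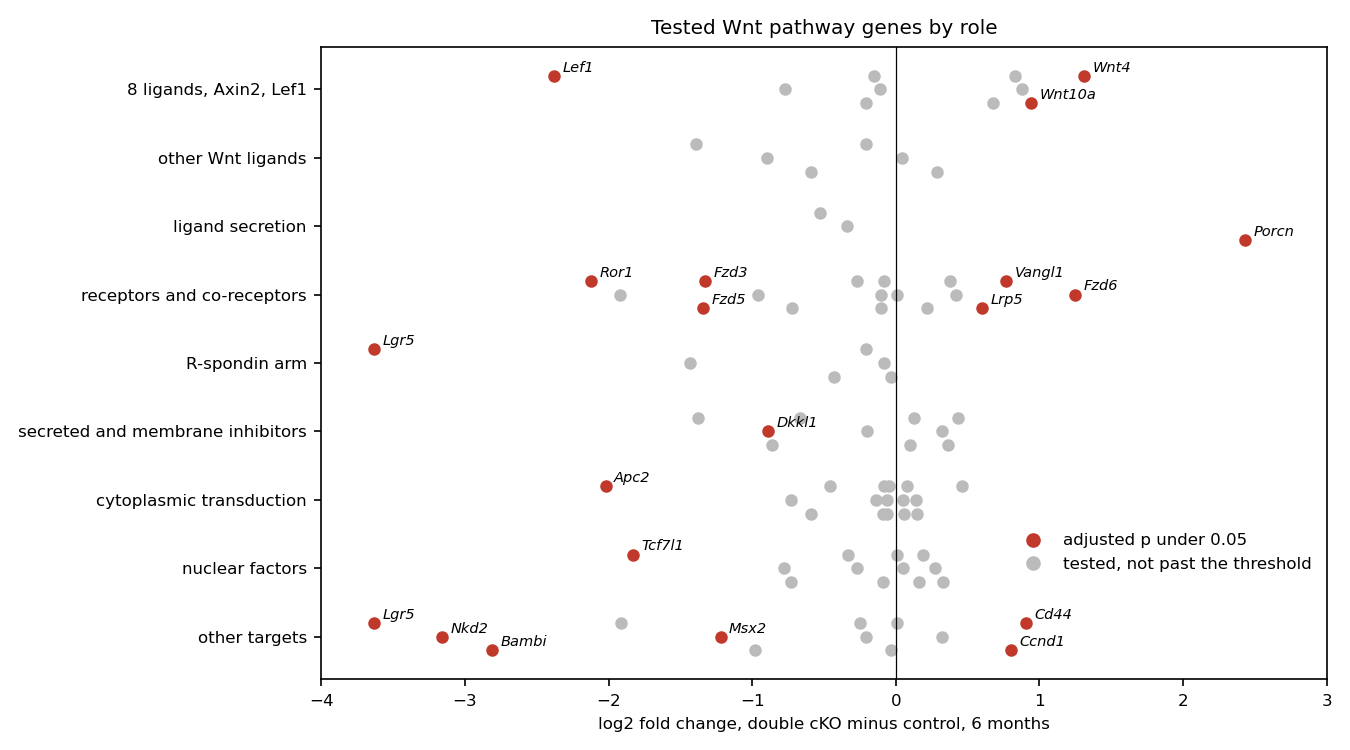
Log2 fold change, double cKO minus control at 6 months, of every tested Wnt pathway gene by its role, with genes past the adjusted p threshold of 0.05 in red and named. Porcn lies highest at 2.43, and the lowest values are those of the targets Lgr5 (-3.63, shown in both its lists), Nkd2 and Bambi.

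The genes whose log2(CPM + 0.5) followed Axin2 most closely over the 8 libraries with counts, among 11331 with at least 5 CPM on average, were Rab7b, Kiz, Heatr6, Ap4m1 and Cnot3. Their root mean square differences after centring were 0.121 to 0.130, where the SD of Axin2 itself was 0.47. For Lef1, with an SD of 1.06, they were Neb, Fam171b, Gem, Nt5e and Azin2, at 0.282 to 0.413. These 8 libraries share the group structure and the depth described above, and the ranking is a description with no test.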

How the data were processed

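Total RNA of epidermis was depleted of ribosomal RNA and sequenced as 150 bp read pairs, per the labels' protocols. The deposited values are whole-number counts per gene over exons, not normalized. The submitters' processing notes name Trimmomatic 0.36, STAR 2.5.2b, featureCounts and Subread 1.5.2, and the builds GRCh38 and GRCm38. The use of strand and the handling of multi-mapping reads are not given in the sources used here. Symbols came from GENCODE M21 (GRCm38), which held 49056 of the 49315 identifiers (99.5%), and 91.4% of those matched had the same start and end.

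The 6-month groups, taken with replicate numbers from the titles, were compared with edgeR 4.0.16 in R 4.3.3 (filterByExpr, TMM, robust glmQLFit with a prior count of 2, glmQLFTest, Benjamini-Hochberg over all genes tested, threshold 0.05). SE is the unshrunk coefficient over the root of F. CPM and TPM were computed here without TMM factors. Depth was 11318181 to 17746284 counts per library. The members, the gene lists and the tests were chosen with earlier results of these data known. Named pathway genes passed the threshold with groups that did not overlap and averaged 1 CPM or more in whichever group was higher, at most 6 per list. The text also names, outside that rule, Tfap2c, Krt14 and genes not called as points of reference, chosen after their values were seen.

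On simulated data, the fit called 41 of 195 genes changed 2-fold (21.0%, of 18787 genes tested) and 148 of 186 changed 4-fold (79.6%, of 18851), none in the wrong direction. Of the 158 calls at 4-fold, 10 were of unchanged genes. Few genes were changed in the simulation, while 14.9% were called in the data, so these shares are not the power of the real comparison. The labels do not say whether replicate numbers pair the samples, and the main fit used no pairing. Deviations from the group means correlated at 0.03, -0.16 and -0.06 for the 3 matching numbers and at -0.11 to 0.17 otherwise. With so few libraries these values cannot exclude a shared origin of samples. The receptor-gene background is the count per exonic kilobase of 1420 odorant and vomeronasal receptor genes, times a gene's exonic length. Alternatives were median-ratio and total-count scaling, no filter, at least 10 counts in every library, DESeq2 1.42.0, limma-voom (limma 3.58.1), a replicate block, all 8 libraries in 1 fit, subtraction of the background, and leaving out each library. Leaving out both control replicates 1 and 2 was added after seeing the data. The 13 files listed at 0 were not used.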

Additional observations from a re-analysis of the deposited data

How the results depend on the processing

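Wnt4 and Wnt10a kept their direction and call in all 16 alternatives. The log2 fold change of Wnt3 turned to 0.22 without control replicate 3 and 0.03 without double cKO replicate 1, and over the fits that leave out 1 library it ran from -0.30 to 0.22. That of Wnt7b (-0.18 to 0.06 over those fits) turned to 0.02 with no filter, 0.06 without control replicate 1, 0.06 without double cKO replicate 1, and 0.28 without both control replicates 1 and 2, and that of Wnt16 (-0.53 to 0.17) to 0.17 without control replicate 2. None of these values passed the threshold. Of the 10 genes, 4 were called higher, not 2, with total counts, with no filter, with at least 10 counts in every library and with DESeq2, and 0 were called lower with limma-voom, the replicate block, all libraries in one fit, the background subtracted, and at least 10 counts in every library. Under that last filter Lef1 was not tested, which is why its call is missing there. For the others the cause was not tested. All 16 other pathway genes named as called kept their direction, and 62 of 255 fits of them were no longer past the threshold.

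Over all genes, 2637 were called (1111 higher, 1526 lower), and with total counts 1376 higher and 1327 lower (50.9% of calls higher, against 42.1%). There were 4809 (1941 and 2868) with no filter, 4173 with DESeq2 (2742 lower) and 1548 (658 and 890) with all libraries in one fit. The replicate block, with numbers whose pairing is not given in the labels, gave 1729 (720 and 1009). Leaving out 1 library gave 668 to 7544 calls (313 to 2733 higher, 355 to 4811 lower), lowest without double cKO replicate 1 and highest without control replicate 3. It gave 2 to 4 of the 10 genes higher and 0 to 1 lower. Lef1 lost its call without any of control replicates 1 and 2 or double cKO replicates 1, 2 and 3, one at a time. Of the other pathway genes, 2 to 10 were then higher (6 with all libraries) and 3 to 15 lower (10 with all libraries), lowest without double cKO replicate 1 and highest without control replicate 3. Without both control replicates 1 and 2 there were 437 calls (195 and 242), with 2 of the 10 genes higher and 0 lower, and 1 other pathway gene higher and 1 lower. That fit assumes that the lone control varies like the other group. In the simulation, with 3 libraries a group and few changed genes, 21.0% of 2-fold changes were called, so a gene not called is not shown to be unchanged.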
